A study of Macaca mulatta with 24 samples.

Results

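The T and B cell marker genes were 10 symbols, CD2, CD3D, CD3E, CD4, CD8A, LCK and IL7R for T cells and CD79A, CD79B and MS4A1 for B cells. They were looked for by gene name among the 10940 named genes (20217 probes) of an Agilent 1-colour expression array used on endometrium of rhesus monkeys (Macaca mulatta). A probe carried the symbol itself for 5 of the 10: CD2, CD3E, CD4, IL7R and MS4A1, with 1 probe each. Probes for CD8A and CD79B were found only through a gene ID, and they are described as related probes and not counted among the 5. No probe was found here for CD3D, LCK or CD79A. Of the 24 arrays, 12 were from conception cycles, in which females were mated and conceived. The other 12 were from non-mated cycles of proven fertile, normally ovulating females. Each cycle type had 4 arrays for day 2, 4 for day 4 and 4 for day 6, counted from ovulation. The labels of the conception arrays count the days after fertilization in 1 field and after ovulation in another. For 8 non-mated samples the title reads day 2 but every other label reads day 4 or 6, which was taken as the day. The labels give no age, no treatment apart from mating and no statement on pooling. No label says that arrays of a group were separate animals, so the spread behind each p-value is that between these samples and may be technical.

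T cells recognise peptides through a receptor whose alpha and beta (or gamma and delta) chains sit in the membrane with the CD3 chains, and CD4 or CD8 serves as coreceptor for 1 of the 2 classes of presenting molecule. B cells signal through a surface immunoglobulin held by the CD79A and CD79B chains, and MS4A1 (CD20) is a membrane protein of B cells. In the endometrium, T cells and natural killer cells are the usual lymphocytes, and B cells are sparse. Several of these genes are shared: CD2 and CD8A are also made by natural killer cells, and CD4 by macrophages and monocytes.

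Each of the 5 genes rests on a single 60-base probe printed in 2 spots, so the first 30 bases of these probes are shown, 5′ to 3′, to identify what was measured.
CD2: tggagtttcttatgtgcgctggtggacact
CD3E: tgtctccgctgtaggccactggatggtcat
CD4: cattgcttactttgcatttgtgcccactct
IL7R: cactcaacatgaggcaagagcatcctgctt
MS4A1: gttcttagagttaccacaccccatgaggga
The array files place the whole probes on the rheMac2 build at chr1:119742372-119742431 (CD2), chr14:116697773-116697832 (CD3E), chr11:7001677-7001736 (CD4), chr6:35627588-35627647 (IL7R) and chr14:13596426-13596485 (MS4A1). The MS4A1 probe is listed with its coordinates in descending order, and the other 4 in ascending order. An annotation of that build was not used here, so exon and UTR positions are not given. GC content was 45% for CD2, IL7R and MS4A1, 50% for CD4 and 55% for CD3E. The longest run of bases that any of the 5 probes shared with another probe on the array, on either strand, was 14 of 60 (CD2 and IL7R) or 13 (CD3E, CD4 and MS4A1).

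A level is the log2 processed signal minus the log2 75th percentile of all probes on the same array, so 0 is the 75th percentile of the array and each unit down is a halving. Levels of different probes are not comparable, and each gene is compared only with itself across arrays. On 21 arrays 53.3% to 71.5% of the probes were well above background, the scanner software's detection flag. On the other 3, all non-mated, the share was 4.33% (day 2 replicate 3), 37.9% (day 4 replicate 1) and 21.8% (day 4 replicate 2). On these weak arrays the 75th percentile is itself low, which places dim probes high on this scale: CD3E, not detected on any of the 3, was at its floor of -0.28, -3.68 and -1.73 there. Most results are therefore given with and without them. Of the tested tissue markers, 5 of 6 for epithelium (all but KRT7, on 18), 8 of 9 for stroma (all but LUM, on 13) and 6 of 6 for smooth muscle were well above background on all 21 other arrays. The smooth muscle markers CNN1 and LMOD1 were detected on only 4 and 5 of these 21 arrays and were not tested. The smooth muscle share thus leaves out markers that were mostly undetected.

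CD2 and CD4 were the 2 members detected on most arrays. CD2, an adhesion receptor of T and natural killer cells, was well above background on 20 of 24 arrays, and CD4, the coreceptor of helper T cells, on 23. CD3E, the epsilon chain of CD3, was well above background on 7 arrays, MS4A1 on 2 and IL7R, a receptor chain for interleukin-7, on 0 of 24. No spot of these probes was saturated. Only CD2 and CD4 passed the filter for testing, which asked for at least 3 of the 4 arrays of 1 group.

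CD2 levels in conception cycles were -3.75, -2.47, -1.53 and -3.62 on day 2 (replicates 1 to 4), -1.43, -2.66, -1.88 and -2.02 on day 4, and -2.37, -3.19, -2.26 and -2.78 on day 6. Non-mated CD2 levels were -3.19, -3.11, -0.28 and -3.64 on day 2, -2.57, -1.73, -3.42 and -3.42 on day 4, and -4.79, -2.65, -2.88 and -2.57 on day 6. The -0.28 is the floor of the weakest array, and the 2 highest values of non-mated day 4 are also from weak arrays. Of these 2, the -1.73 is a floor value too, and CD2 was not well above background on any weak array. Of the 21 other arrays, conception day 4 replicate 1 was the highest and non-mated day 6 replicate 1, where CD2 was not well above background, the lowest.

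Without the weak arrays the 3 conception groups stood above the 3 non-mated groups in the order of mean CD2 level. The order was conception day 4 at -2.00 ± 0.51 (SD, n = 4), conception day 6 at -2.65 ± 0.42 (n = 4), conception day 2 at -2.84 ± 1.05 (n = 4), non-mated day 6 at -3.22 ± 1.05 (n = 4), non-mated day 2 at -3.31 ± 0.29 (n = 3) and non-mated day 4 at -3.42 (n = 2). In linear terms this ran from 25.0% to 9.36% of the 75th percentile signal. Of the 5 gaps between neighbours in this order, 4 were smaller than the larger SD of the pair, and the exception was the gap of 0.65 between conception day 4 and day 6. The order by cycle type depended on non-mated day 6 replicate 1 (-4.79), where CD2 was not well above background. Without that array, non-mated day 6 would come above conception day 2, and the day 6 difference between cycle types was 0.05. With the weak arrays in, the order was not by cycle type, since non-mated day 2 came second at -2.56 ± 1.53 (n = 4), and all 5 gaps were under the SD. In endometrial RNA, fewer cells of a type and less RNA per cell cannot be told apart.

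**Figure D1:**
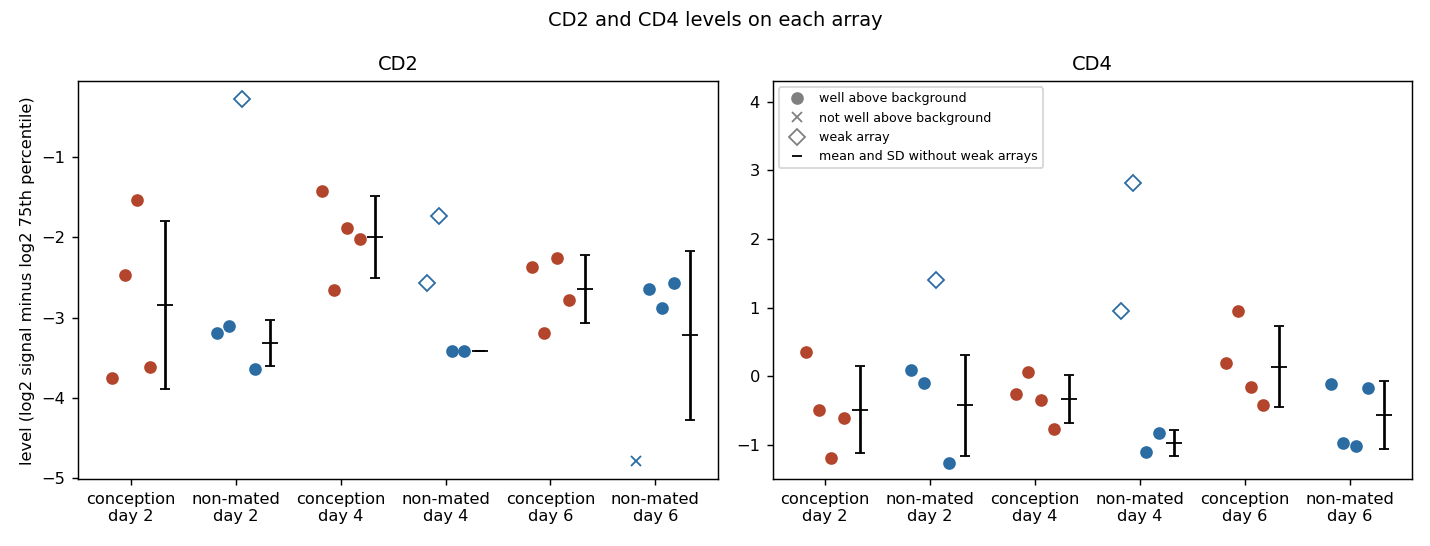
Levels of CD2 (left) and CD4 (right) on each of the 24 arrays, as log2 signal minus the log2 75th percentile of the array (y axis), by group (x axis; red conception, blue non-mated). Filled circles are arrays where the probe was well above background, crosses where it was not, diamonds the 3 weak arrays, and black bars the mean and SD without the weak arrays. At day 4 all 4 conception arrays lie above the 2 non-mated arrays that were not weak, for both genes, as for 7.19% of all 12235 features. The weak arrays lie above most others.

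The comparison of cycle types asks whether the endometrium of a conception cycle differed from that of a non-mated cycle on the same day. Neither CD2 nor CD4 passed limma's adjusted p of 0.05 at any day. Over all 12235 features tested, 0% were called at day 2, 0% at day 4, 0.00817% at day 6 and 0.00817% for the mean over days, so few features of any kind were called. At an unadjusted p under 0.05, limma gave 306 features (2.5%) at day 2, 746 (6.1%) at day 4, 292 (2.39%) at day 6 and 820 (6.7%) over days, and neither member was among them.

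With all arrays, the CD2 difference (conception minus non-mated, log2) was -0.29 ± 0.66 (SE) at day 2, 0.79 ± 0.66 at day 4 and 0.57 ± 0.66 at day 6, with limma adjusted p from 0.70 to 1.00. The mean over days was 0.36 ± 0.38, with a 95% interval from -0.43 to 1.14. Leaving out the weak arrays gave 0.47 ± 0.53 at day 2, 1.42 ± 0.60 at day 4 and 0.57 ± 0.49 at day 6. The day 4 value is a ratio of 2.68 (95% interval 1.12 to 6.41) with an unadjusted p of 0.029 and a limma adjusted p of 0.86. The mean over days was then 0.82 ± 0.31, a ratio of 1.77 (1.12 to 2.79), with an unadjusted p of 0.017 and a limma adjusted p of 0.56. Without these arrays, limma's unadjusted p was under 0.05 for 1.23% of features at day 2, 5.45% at day 4, 9.33% at day 6 and 7.69% over days, and its adjusted p for 0%, 0%, 0.0245% and 0.0163%.

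Without the weak arrays, every conception array at day 4 (4) lay above every non-mated array (2) for CD2. The same held for 7.19% of the 12235 features, and the reverse for 6.8%. With all arrays the CD2 and CD4 levels of the cycle types overlapped at each day, where 0.564%, 1.12% and 2.57% of features had every conception array above and 0.834%, 1.29% and 1.74% every conception array below. On scan day 1, the day 4 difference was 1.47 between 2 conception and 2 non-mated arrays, which lay on different slides, so slide and cycle type cannot be told apart there. On scan day 2, where both non-mated day 4 arrays were weak, it was 0.11. On the 2 slides that held both cycle types at day 4, it was 1.14 and -0.92, each against 1 weak array. The day 2 difference was -0.00 on slide 4 and the day 6 difference 2.01 on slide 1, each against 1 non-mated array, and in the latter CD2 was not detected on that array. At day 6 the scan days gave 0.24 and 0.90. The non-mated day 4 arrays that were not weak also had 68.0% and 69.0% of their probes well above background, against 53.3% to 60.5% on the conception day 4 arrays, and the part of this in the difference was not tested.

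CD4 levels in conception cycles were 0.35, -0.49, -1.19 and -0.61 on day 2, -0.26, 0.07, -0.35 and -0.77 on day 4, and 0.19, 0.95, -0.15 and -0.42 on day 6. Non-mated CD4 levels were 0.09, -0.10, 1.41 and -1.26 on day 2, 0.95, 2.82, -1.10 and -0.83 on day 4, and -0.11, -0.97, -1.02 and -0.17 on day 6. The 3 weak arrays held 3 of the 4 highest values, at 1.41, 0.95 and 2.82. Without them the order of group means ran from conception day 6 at 0.14 ± 0.59 (SD, n = 4) to non-mated day 4 at -0.97 ± 0.19 (n = 2), and all 5 neighbouring gaps were under the SD.

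The sign of the CD4 difference at day 4 depended on the weak arrays. It was -0.78 ± 0.65 (SE) with them and 0.64 ± 0.46 without them, with limma adjusted p of 0.70 and 0.88. At day 2 the CD4 difference was -0.52 ± 0.65 with all arrays and -0.06 ± 0.41 without the weak ones. At day 6, which holds no weak array, it was 0.71 with an SE of 0.65 or 0.38 and a limma adjusted p of 1.00 or 0.57. The mean over days was -0.20 ± 0.38 with all arrays and 0.43 ± 0.24 without the weak ones, with 95% intervals from -0.98 to 0.58 and from -0.07 to 0.93. Within scan days 1 and 2 the CD4 difference was 0.41 and -1.98 at day 4, the latter against 2 weak arrays, and 0.71 on both scan days at day 6. Without the weak arrays all 4 conception arrays at day 4 lay above both non-mated arrays for CD4 as well, as for 7.19% of the 12235 features.

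Within each cycle type, the days were compared with each other. Over the 6 comparisons of days, CD2 differences ranged from -0.67 to 0.84 and CD4 differences from -1.03 to 0.63, with limma adjusted p of at least 0.76 and 0.77. Without the weak arrays the ranges were -0.65 to 0.84 for CD2 and -0.54 to 0.63 for CD4, with limma adjusted p of at least 0.69 and 0.44. For conception day 6 minus day 2, 0.0163% of features were called with all arrays and 1.7% (208 features) without the weak arrays, and neither CD2 nor CD4 was among them. Limma's unadjusted p was under 0.05 for 2.53%, 0.621% and 4.18% of features for conception day 4 minus 2, 6 minus 4 and 6 minus 2, and for 3.57%, 3.56% and 3.24% in non-mated cycles. Without the weak arrays these shares were 8.32%, 5.19%, 15.2%, 2.66%, 1.56% and 1.81%. CD2 and CD4 had an unadjusted limma p of at least 0.13 in each with all arrays and of at least 0.10 without the weak ones. The interaction of cycle type and day gave a limma adjusted p of 0.99 for both genes with all arrays and 0.97 without the weak arrays, and an unadjusted p under 0.05 for 1.36% and 2.63% of features.

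CD3E had levels of -6.19, -4.67, -4.42 and -6.53 at conception day 2, -3.63, -4.67, -5.22 and -4.78 on day 4, and -5.54, -5.69, -5.35 and -5.80 on day 6. Non-mated CD3E levels were -4.88, -5.67, -0.28 and -5.71 on day 2, -3.68, -1.73, -6.29 and -4.63 on day 4, and -5.51, -5.16, -5.45 and -5.31 on day 6. The 7 detected values were conception day 2 replicates 2 and 3, conception day 4 replicate 1, non-mated day 2 replicate 4, non-mated day 4 replicate 4 and non-mated day 6 replicates 2 and 3. Conception day 6 was the 1 group with no detected CD3E array. The lowest probe well above background was at -4.63 to -3.99 on the conception day 6 arrays but at -6.70 and -6.54 on the non-mated day 6 arrays that detected CD3E. A CD3E level detected on the latter would thus have been under the lowest detected level of the former. No fold is given for CD3E, since the means of non-mated day 2 and day 4 include undetected floor values of weak arrays.

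IL7R was detected on 0 of 24 arrays, with levels from -8.18 to -5.02 on the 21 arrays that were not weak, and at the floor on 13 of 24 arrays. MS4A1 was well above background only on non-mated day 4 replicates 2 (0.60, a weak array) and 4 (-5.18). On the 21 arrays that were not weak MS4A1 ran from -8.16 to -4.78. No fold is given for MS4A1 either: the non-mated day 4 mean includes the undetected floor of weak replicate 1 (-3.68), and without both weak arrays it was -6.34 (n = 2). These 3 members were fitted by limma only when the filter was dropped, where the smallest adjusted p among them was 0.53.

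**Figure D2:**
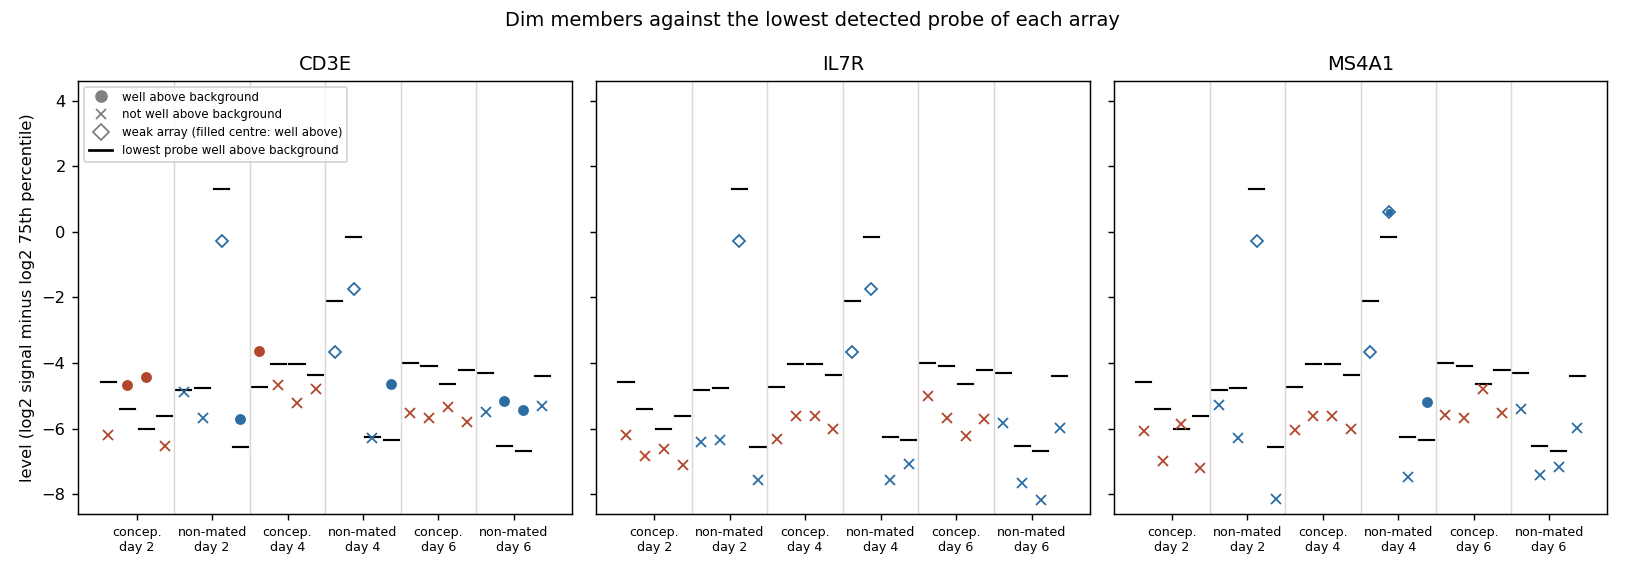
Levels of CD3E, IL7R and MS4A1 (y axis, log2 signal minus the log2 75th percentile) on each array, grouped along the x axis (red conception, blue non-mated). Circles are detected values, crosses values not well above background, diamonds weak arrays, and each black line the lowest probe well above background on that array. CD3E was detected on 7 arrays, IL7R on 0 and MS4A1 on 2 non-mated day 4 arrays, and the lines are 2 or more units lower on some non-mated arrays than on others.

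The related probes for CD8A and CD79B passed the filter. CD8A, the alpha chain of the CD8 coreceptor, was well above background on 14 arrays, at -3.87, -3.74, -3.38 and -4.04 in conception day 2, -2.68, -2.19, -4.21 and -2.75 in day 4, and -4.08, -4.26, -3.29 and -3.87 in day 6. In non-mated cycles it was at -4.74, -4.22, -0.28 and -4.73 on day 2, -3.68, -1.73, -4.33 and -4.88 on day 4, and -5.90, -4.01, -3.95 and -3.38 on day 6. The -0.28, -3.68 and -1.73 are floor values of the weak arrays, and the -5.90 is also a floor value. At day 4 the CD8A difference was 0.70 ± 0.80 (SE) with all arrays and 1.65 ± 0.56 without the weak arrays, with limma adjusted p of 0.76 and 0.86. At day 2 the CD8A difference was -0.27 ± 0.80 with all arrays and 0.80 ± 0.49 without the weak one (limma adjusted p 0.92 and 1.00). At day 6, which holds no weak array, the CD8A difference was 0.43, and -0.10 without non-mated replicate 1. Over all 11 comparisons of cycle types, days and their interaction, the smallest unadjusted limma p of CD8A was 0.26 with all arrays. Without the weak arrays it was 0.0040, below the smallest for CD2 (0.017), and the smallest limma adjusted p of CD8A was 0.40. With the weak arrays left out, all conception arrays lay above all non-mated arrays for CD8A at days 2 and 4, as did 1.44% and 7.19% of all features. Of these arrays, CD8A was well above background on 1 of 3 non-mated arrays at day 2 and 3 of 4 conception arrays at day 4. CD79B, the beta chain of the B cell receptor complex, was well above background on 18 arrays, and at day 4 its difference was -0.34 ± 0.70 with all arrays and 0.63 ± 0.51 without the weak ones (limma adjusted p 0.86 and 0.88).

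Further probes for T cell receptor chains carry no listed symbol. The 3 probes for the beta constant region and TARP, a transcript of the gamma chain locus, were detected on 18 to 22 of 24 arrays, an alpha chain probe on 19 and a second alpha chain probe on 1. The gamma locus probe TARP was at -1.23, -1.41, -2.27 and -1.70 in conception day 4 and at -3.15, -1.41, -3.42 and -2.59 in non-mated day 4, where the first 2 values are from weak arrays. Its difference at day 4 was 0.99 ± 0.61 with all arrays and 1.35 ± 0.59 without the weak ones (limma adjusted p 0.69 and 0.86). The beta constant probes differed by 0.64 ± 0.77, 0.29 ± 0.66 and 0.15 ± 0.57 with all arrays and by 1.51 ± 0.63, 1.12 ± 0.54 and 0.89 ± 0.48 without the weak ones, with limma adjusted p from 0.77 to 0.93 and of 0.86. Without the weak arrays, these 4 probes lay higher on every conception array than on both non-mated arrays of day 4, as CD2, CD4, CD8A, ZAP70 and GZMK did, beside 7.19% of all features. JCHAIN and TRAT1 lay lower on every conception array there, beside 6.8% of all features. The alpha chain probe did not: it was at -3.17, -3.36, -3.81 and -4.22 in conception day 4 and at -2.32, 0.91, -4.29 and -3.58 in non-mated day 4, the first 2 from weak arrays. Its difference was -1.32 ± 0.87 with all arrays and 0.30 ± 0.48 without the weak ones (limma adjusted p 0.69 and 0.94). CD8B, the beta chain of CD8, overlapped too, at 0.21 ± 0.75 and 0.68 ± 0.57 (limma adjusted p 0.92 and 0.88).

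**Figure D3:**
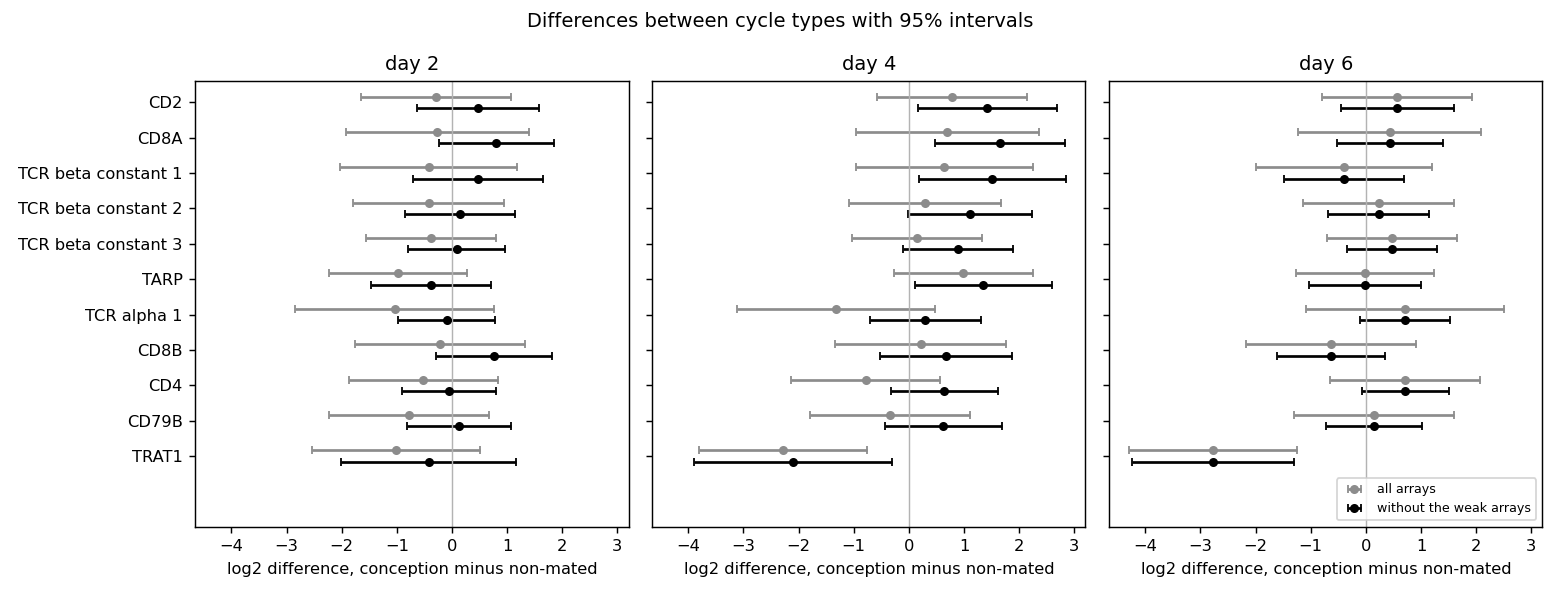
Differences between conception and non-mated cycles at days 2, 4 and 6 (x axis, log2) for CD2, CD4, the related probes CD8A and CD79B, probes for T cell receptor chains, CD8B and TRAT1 (y axis). Points are limma estimates with 95% intervals, grey with all arrays and black without the 3 weak arrays. At day 4 the CD2 estimate moves from 0.79 to 1.42 and the CD4 estimate from -0.78 to 0.64 when the weak arrays are left out, and TRAT1 lies below 0 in both.

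Correlations were described across the 21 arrays that were not weak. The named features most like CD2 were GZMK, a granule protease of cytotoxic lymphocytes (Pearson r 0.81, Spearman rho 0.87), RASSF5, an adaptor in lymphocyte adhesion (r 0.77, rho 0.78), and GIMAP2, a GTPase of lymphocytes (r 0.75, rho 0.72). CD2 also went with CD8A (r 0.74, rho 0.67), TARP (r 0.73, rho 0.74) and the 3 beta constant probes (r 0.61 to 0.75). Within scan day 1 (11 arrays) and scan day 2 (10 arrays) the r of CD2 with GZMK was 0.76 and 0.91, with CD8A 0.72 and 0.78, and with TARP 0.80 and 0.81. After the group means were taken out, r was 0.77 with GZMK, 0.56 with CD8A and 0.69 with TARP. These are descriptions over arrays that share groups and slides.

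The r of CD2 with CD4 was -0.12 (rho -0.08), at 0.27 within scan day 1 and -0.27 within scan day 2. The features most like CD4 were CCND3, a cyclin of cell cycle entry (r 0.93, rho 0.87), LIN37, a subunit of a cell cycle repressor complex (r 0.92, rho 0.89), and CBX6, a Polycomb protein (r 0.90, rho 0.88). CD4 had an r of 0.13 with TARP and 0.03 with CD8A, but of 0.76 (rho 0.72) with the alpha chain probe, at 0.80 within scan day 1 and 0.37 within scan day 2. It was 0.73 (rho 0.75) with CD79B, at 0.63 and -0.04 within the scan days, and -0.58 with TRAT1. The r of CD2 was 0.07 with the alpha chain probe and 0.03 with CD79B. CD4 went down with the share of probes well above background on the array (r -0.75, rho -0.66), also within scan day 1 (-0.71) and scan day 2 (-0.62). For CD2 the r with that share was -0.13, at -0.57 within scan day 1 and 0.33 within scan day 2. The part of array quality in the CD4 values was not tested.

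**Figure D4:**
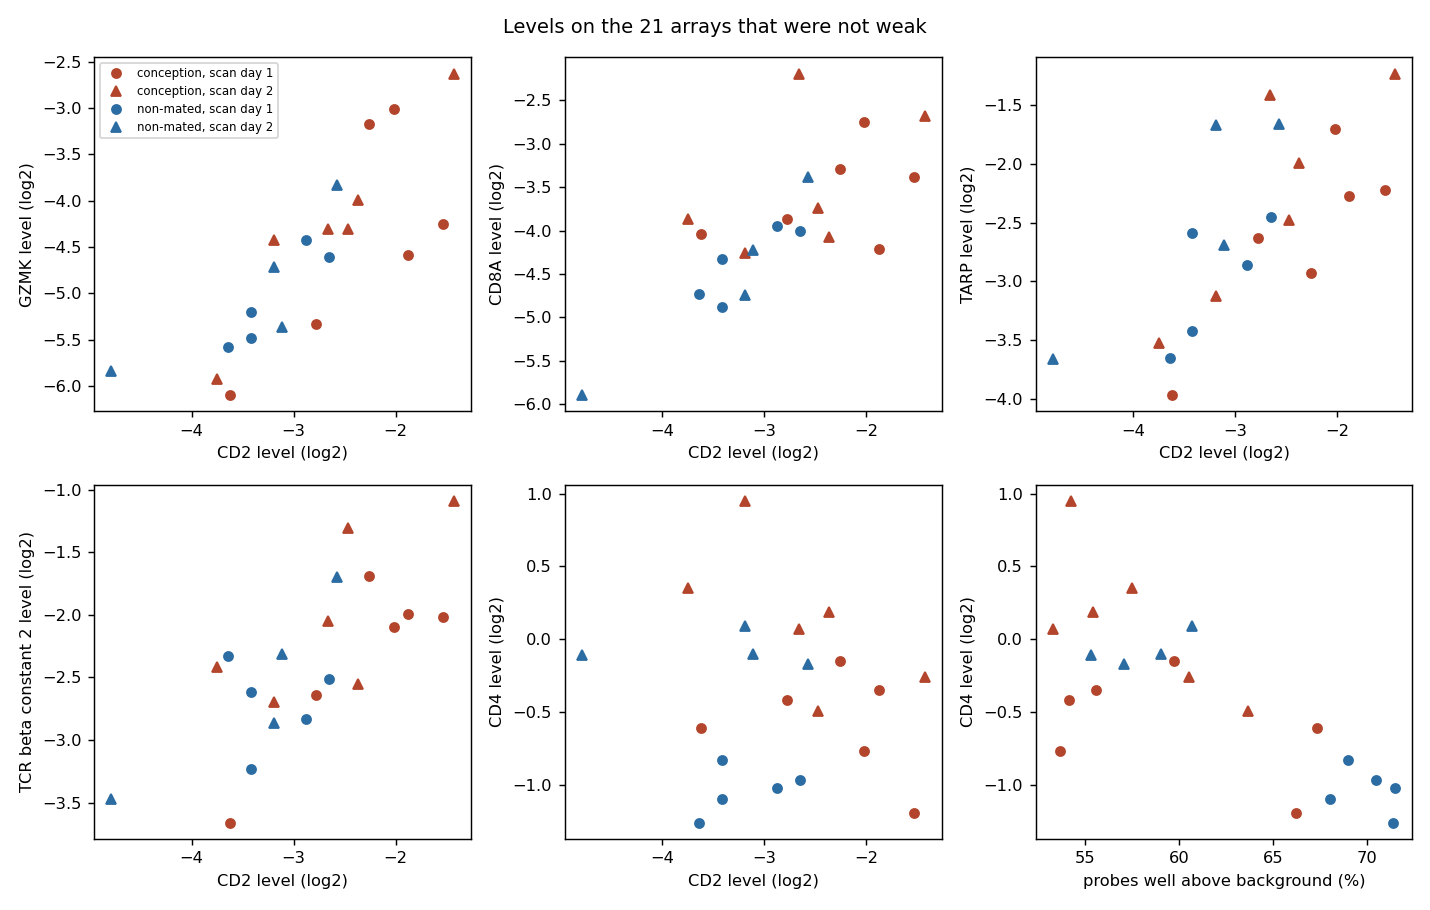
Levels on the 21 arrays that were not weak, with CD2 on the x axis against GZMK, CD8A, TARP, the beta constant probe 2 and CD4 (log2 signal minus the log2 75th percentile), and CD4 against the percentage of probes well above background. Red is conception and blue non-mated, circles scan day 1 and triangles scan day 2. The first 4 panels slope upward (r 0.73 to 0.81), CD2 against CD4 does not (r -0.12), and CD4 slopes downward with the share of detected probes (r -0.75).

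Other genes of T and B cells were followed through 5 lists, of which 26 genes were tested, and 0 passed limma's adjusted threshold in any of the 11 comparisons, with or without the weak arrays. Of the T cell receptor signalling list, 10 of 16 genes were on the array and 3 passed the filter. For the mean over days 1 of these was higher and 2 lower in conception cycles, with a median of -0.04 beside -0.05 for all features. CD3G, the gamma chain of CD3, was detected on 1 array, conception day 6 replicate 3, at 0.84, where the other 3 arrays of its group were at -5.58 to -5.80. That array also had 616 flagged spots, against at most 50 on any other. The common leukocyte antigen PTPRC was detected on 2 arrays, the same one at -1.57 and non-mated day 6 replicate 3 at -6.13.

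TRAT1, an adaptor of the T cell receptor complex, had the smallest unadjusted p of the 5 lists for the mean over days. Its levels were -5.20, -2.33, -2.25 and -2.51 in conception day 2, -3.36, -5.63, -4.47 and -4.32 in day 4, and -4.19, -5.69, -6.22 and -3.73 in day 6. Non-mated TRAT1 levels were -1.33, -3.73, -0.28 and -2.89 on day 2, -2.20, -1.73, -2.30 and -2.39 on day 4, and -1.73, -2.28, -1.62 and -3.11 on day 6. At days 4 and 6 every conception array lay below every non-mated array, as for 1.29% and 1.74% of all features, and TRAT1 was detected on 1 of 4 conception arrays at each of these days. It was detected on 2 of 4 non-mated arrays at day 4 and on neither weak array there. Without the weak arrays the day 4 separation held, as for 6.8% of all features. The mean over days was -2.03 ± 0.42 (SE) with an unadjusted p of 8.7e-05 and a limma adjusted p of 0.15, and -1.77 ± 0.45 without the weak arrays (adjusted p 0.33). At day 6 the difference was -2.78 ± 0.73 (limma adjusted p 1.00), and it rests on 3 conception arrays where TRAT1 was not detected, 2 of them at the floor. The r of TRAT1 with CD2 over the 21 arrays was -0.25.

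In the list of T cell costimulation, subsets and homing, 9 of 23 genes were tested, 3 higher and 6 lower over days with a median of -0.11, and 6 higher and 3 lower without the weak arrays with a median of 0.27. BCL11B, a transcription factor of T cells, had the smallest p there, at -0.92 ± 0.51 (limma adjusted p 0.68) and -0.40 ± 0.41 without the weak arrays. In the B cell list, 8 of 22 genes were tested, 1 higher and 7 lower with a median of -0.31, and 4 higher and 4 lower without the weak arrays with a median of -0.00. BANK1, a B cell scaffold, was at -0.80 ± 0.44 and -0.88 ± 0.51 without the weak arrays (limma adjusted p 0.68 and 0.72). CD22, an inhibitory receptor of B cells, was detected on 21 arrays but spread from -4.88 to 1.88 within conception day 6 alone. In the plasma cell list, 3 of 9 genes were tested. SDC1, a surface proteoglycan of plasma and epithelial cells, had the smallest p there, at -0.83 ± 0.42 and -0.27 ± 0.33 without the weak arrays (limma adjusted p 0.68 and 0.90). JCHAIN, the joining chain of secreted antibodies, was detected on 14 arrays. It differed by -0.46 ± 0.60 over days and by -0.31 ± 0.62 without the weak arrays (limma adjusted p 0.74 and 0.95). In the list of lymphocyte attractants, 3 of 13 genes were tested (TNFSF13B, CCL21 and CXCL13), all 3 lower over days with all arrays and all 3 higher without the weak ones. TNFSF13B, a survival factor of B cells, had the smallest p there, at -0.41 ± 0.33 and 0.16 ± 0.19 (limma adjusted p 0.68 and 0.90).

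For conception day 6 minus day 2, the gene of smallest p in each of the 5 lists also missed limma's adjusted threshold, with adjusted p of 1.00 each. The differences were -1.89 ± 0.73 (SE) for TRAT1, -1.36 ± 0.89 for BCL11B, -1.23 ± 0.94 for SPIB, a transcription factor of B cells detected on 7 of 24 arrays, 1.31 ± 0.51 for PRDM1, a transcription factor of plasma cells, and 2.09 ± 1.22 for CXCL13, an attractant of B cells detected on 11. The weak arrays are not in these groups and change only the SE, with limma adjusted p from 0.20 to 0.32 without them.

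Markers of the cells that share CD2 and CD4 were measured beside them. Of the natural killer cell list, 7 of 15 genes were tested, with a median over days of 0.06 in all arrays (4 higher, 3 lower) and of 0.67 without the weak arrays (7 higher, 0 lower), beside -0.05 and 0.02 for all features. GZMB, a granule protease, had the smallest p of that list, at 0.60 ± 0.39 and 0.75 ± 0.42 without the weak arrays (limma adjusted p 0.68 and 0.71). Their summed signal, in units of the 75th percentile, was 7.05 to 35.3 in conception day 4 and 8.29 to 11.7 on the 2 non-mated day 4 arrays that were not weak. Without the weak array it was 11.7 to 28.0 in conception and 8.69 to 16.9 in non-mated cycles at day 2. At day 6 these ranges were 32.5 to 40.9 and 16.3 to 61.9. GNLY and NKG7 were detected on all 24 arrays, whereas EOMES and XCL1 were detected on 0. Of the macrophage and monocyte list, 8 of 12 genes were tested, with a median of 0.35 (5 higher, 3 lower) and of 0.55 without the weak arrays (8 higher, 0 lower), beside -0.05 and 0.02 for all features. Their summed signal was 29.7 to 107 in conception day 6 and 11.5 to 58.0 in non-mated day 6. At an unadjusted p under 0.05, limma gave 4 of the 8 macrophage genes with all arrays and 6 without the weak ones, beside 6.7% and 7.69% of all features. The smallest p were those of C1QA, a complement subunit, at 0.80 ± 0.25 and LYZ, lysozyme, at 1.04 ± 0.34 over days (limma adjusted p 0.50 and 0.54). Without the weak arrays C1QA was at 0.52 ± 0.21 and LYZ at 0.82 ± 0.35 (limma adjusted p 0.58 and 0.62). None of the natural killer or macrophage genes passed limma's adjusted threshold, and the part of natural killer cells in the CD2 values and of macrophages in the CD4 values was not tested.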

How the data were processed

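Endometrial total RNA of 24 rhesus samples was labelled with Cy3 (200 ng each) and hybridised to Agilent 1-colour arrays, per the labels' protocols. Per the file headers, the authors deposited scanner output in which each spot's intensity (linear) had its background removed by Feature Extraction 9.5.3.1. The submitters' processing notes name version 10.7.3.1. A deposited table of log2 values, whose centring stays unknown, served as an alternative. Its column medians ran from -0.41 to 2.85, and differences between arrays correlated with the scanner values at r from 0.990 to 1.00.

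Control and flagged spots were dropped and spots of a probe averaged. Levels were log2 signal minus the array's 75th percentile, which ran from 23.1 to 5421 intensity units. A probe was tested if at least 3 arrays of 1 group had it well above background, giving 12235 features. For a gene with several probes the brightest was used. Symbols were found for 11890 of 20217 probes, from the gene name in the files or through gene IDs, accessions and descriptions in the RefSeq gene tables. limma 3.58.1 in R 4.3.3 fitted the 6 groups on all 24 arrays, with Benjamini-Hochberg adjustment over all features, and was tested on simulated data. Figures and summaries used Python 3.11.15 with pandas 2.3.3 and numpy 2.4.6. The number of arrays limits the precision.

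All members were named, with up to 3 genes of smallest p in each T and B cell list (1 is given) for the mean over days and for conception day 6 minus day 2, and the 3 features most correlated with each tested member. Single arrays and the other list genes and probes were named after their values were seen. The members, lists and tests were chosen with earlier results of these data known. Alternatives covered background correction, normalization, filters, slide, scan day and replicate blocks, array weights and leaving out arrays. The result for 1 listed gene is not reported here.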

Additional observations from a re-analysis of the deposited data

Results flagged for a closer look

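The level of 1 array stood apart from the other 3 of its group, by Dixon's ratio at its 95% critical value, in 6 of 42 gene and group combinations (7 probes in 6 groups), and chance gives about 1 in 20. In non-mated day 2, the highest array was at -0.28 for CD2, CD3E, IL7R and CD8A. It is the same weak array each time, and -0.28 is its floor value and not a measured level. In non-mated day 6, CD2 on replicate 1 was at -4.79, below the other 3 arrays at -2.88 to -2.57, and not well above background there. In conception day 6, CD79B on replicate 4 was at -4.41, below the other 3 at -3.30 to -3.13.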

How the results depend on the processing

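In all 40 settings, 0 members passed limma's adjusted threshold in any of the 11 comparisons, with adjusted p of at least 0.48 for CD2 and 0.25 for CD4. Few features of any kind passed it, where the filter above gave 12235 features. The most called in any setting was 12 for a comparison of cycle types, at day 6. It was 30 for conception day 4 minus day 2 and 222 for conception day 6 minus day 2. With so few calls, the 0 called members are not set apart from other features. The CD2 difference at day 4 stayed positive, from 0.58 to 1.68, and TRAT1 stayed negative over days and at day 6. Of the differences between cycle types printed in the report, these changed sign. CD2 at day 2 was 0.69 under normexp background correction, 0.84 under quantile normalization, 0.47 without the weak arrays, 0.24 with array weights and 0.06 with slide as a block, and CD8A at day 2 was 0.56, 0.87, 0.80, 0.55 and 0.54 under the same 5 settings. CD4 at day 4 was 0.64 without the weak arrays and 0.46 with array weights, and over days 0.01 under normexp, 0.43 without the weak arrays and 0.34 with weights. CD79B at day 4 was 0.69 under quantile normalization, 0.63 without the weak arrays and 0.62 with weights. The alpha chain probe at day 4 was 0.30 without the weak arrays and 0.12 with weights, CD8B at day 4 -0.12 under normexp, and JCHAIN over days 0.50 under quantile normalization, 0.04 with weights and 0.00 with slide as a block. TNFSF13B over days was 0.27 under quantile normalization, 0.16 without the weak arrays and 0.14 with weights. Quantile normalization and normexp together with leaving out the weak arrays, chosen after the data were seen, gave 0.42 and 1.22 for CD2 and 0.78 and 1.28 for CD8A at day 2, 0.64 and 0.63 for CD4 at day 4, 0.42 and 0.45 for CD4 over days, 0.58 and 1.15 for CD79B and 0.25 and 0.85 for the alpha chain probe at day 4, 0.09 and 0.51 for TNFSF13B over days, and normexp gave 0.06 for CD4 at day 2 and 0.43 for BCL11B, 0.14 for JCHAIN and 0.55 for SDC1 over days. The cause was not tested. The median over all features reached 0.49 in the cycle-type comparisons under quantile normalization with the weak arrays. It ran from -0.03 to -0.01 under quantile normalization without them. Dropping the filter took the median to -0.72.

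Leaving out 1 array at a time gave -0.72 to 0.47 for CD2 and -0.68 to 0.80 for CD8A at day 2, -1.30 to 0.00 for CD4 at day 4, -0.37 to 0.06 for CD4 over days, -0.79 to 0.16 for CD79B at day 4, and -0.09 to 1.06 and -0.19 to 0.79 for beta constant probes 2 and 3 and -0.03 to 0.77 for CD8B at day 4. For CD8A at day 6 the range was -0.10 to 0.74, and it turned without non-mated replicate 1 (-0.10). CD2 at day 6 stayed positive, from 0.05 without the same array to 0.79. CD2 at day 2 turned without non-mated replicate 3 (0.47), the weakest array, or conception replicate 1 (0.02), CD8A at day 2 without that weakest array (0.80), and CD4 at day 4 without non-mated replicate 2 (0.00), also weak, as did CD4 over days (0.06) and CD79B (0.16). Beta constant probe 2 turned without non-mated replicate 3 (-0.09), and probe 3 without that array (-0.19) or conception replicate 1 (-0.04). CD8B turned without non-mated replicate 1, a weak array, or conception replicate 4 (-0.03 each). Each group holds each replicate number once, so the replicate block could change the SE but not the differences. CD2 at day 4 thus stayed at 0.79 by design, and no call changed. Same-numbered samples correlated at -0.23 to 0.46. These values were not set beside those of differently numbered samples, so they cannot decide whether the numbers pair the samples.

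Detection limits CD3E, IL7R and MS4A1, whose levels lie at or near the lowest detected probe of most arrays. Non-mated day 4 rests on 2 arrays once the weak ones are left out, and slide and cycle type cannot be told apart on scan day 1.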
